A study of Mus musculus with 4 samples.

Results

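The intervals described here are stretches of mouse brain RNA that were enriched by an antibody against N6-methyladenosine (m6A) in both replicates and that lie in exons of genes that do not code for protein. Where peaks from both replicates overlapped by at least 1 bp, their common bases were taken as a shared interval. An interval was kept when its midpoint lay in an exon of a non-coding gene of the GENCODE M21 annotation and in no exon of a protein-coding gene. The rule used position alone and no enrichment value. It kept 555 of 23901 shared intervals, or 2.32% (95% Wilson interval 2.14 to 2.52), in 397 genes. For comparison, 21444 intervals (89.7%) had their midpoint in an exon of a protein-coding gene and 1902 in no annotated exon.

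The series holds 4 samples of whole brain from C57BL/6J mice at 4 weeks of age, and its design text names the animals as Prrc2a flox/flox, that is, with loxP-flanked Prrc2a alleles. No Cre driver and no second genotype are named, so there was no treatment or mutant to compare. In m6A-seq, fragmented mRNA is incubated with the antibody and the bound RNA (IP) is sequenced beside RNA that was not selected (input). The 2 IP samples came with a peak list each, and the 2 input samples have none of their own. They served as the controls against which peaks were called, and they enter each value through fold enrichment, the linear ratio of IP over input in a peak. Replicate 1 had 38533 peaks and replicate 2 had 30134. The lists hold no read counts, so the depth behind a value is unknown here, and they hold no strand. Of 10 genes that mark brain cells, 9 carried a shared interval and Gad1 did not, and none of 8 genes typical of other organs did.

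m6A is placed on adenosines of nascent RNA by a methyltransferase complex with Mettl3 and Mettl14, mostly within short motifs around GGAC, and reader proteins that recognise it act on splicing, export, translation and decay. In messenger RNA the mark is known to gather in long internal exons and near stop codons. Non-coding genes have no stop codon, and several well known long non-coding RNAs such as Malat1 and Neat1 carry the mark. GENCODE sorts these genes by type. A lincRNA lies between coding genes, an antisense gene overlaps a coding gene on the other strand, and a processed transcript is a spliced RNA without an open reading frame. TEC marks gene models that still await experimental evidence, and a processed pseudogene is an inserted copy of a spliced mRNA.

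Sequence from the centre of 7 intervals is shown first, because the rest of the account turns on whether such a window holds the motif, a repeat or a copy of a coding gene. Each window is the midpoint with 100 nt on either side, read 5′ to 3′ on the strand of the gene from genome build GRCm38.p6 (the sequence of mm10), with GGAC in capitals, and with the following T in capitals where it completes GGACT. The first 5 are the strongest members, ranked by whichever fold enrichment of a pair was the smaller. Zfp862-ps is the strongest of the unprocessed and other pseudogenes, and the strongest Meg3 interval was added after its values were seen. The windows lie at chr9:109830213-109830413 (minus strand) for 3000002C10Rik, chr5:25530328-25530528 (plus) for 1700096K18Rik, chr14:20641408-20641608 (plus) for 2810402E24Rik and chr1:58385015-58385215 (minus) for Gm37607. Those of C730002L08Rik, Zfp862-ps and Meg3 lie at chr19:20536054-20536254 (minus), chr6:48512212-48512412 (plus) and chr12:109560776-109560976 (plus). All lie in exons.
3000002C10Rik: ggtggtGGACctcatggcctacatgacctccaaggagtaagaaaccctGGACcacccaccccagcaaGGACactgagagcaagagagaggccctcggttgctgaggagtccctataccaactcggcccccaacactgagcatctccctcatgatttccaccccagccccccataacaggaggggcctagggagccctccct
1700096K18Rik: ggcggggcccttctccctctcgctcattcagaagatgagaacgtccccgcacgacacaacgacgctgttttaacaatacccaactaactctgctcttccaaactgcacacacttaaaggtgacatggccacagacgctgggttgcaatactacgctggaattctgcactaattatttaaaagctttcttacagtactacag
2810402E24Rik: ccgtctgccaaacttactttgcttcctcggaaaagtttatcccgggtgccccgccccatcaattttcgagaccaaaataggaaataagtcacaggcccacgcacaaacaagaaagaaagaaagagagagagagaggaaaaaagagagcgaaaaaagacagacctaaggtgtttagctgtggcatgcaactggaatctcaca
Gm37607: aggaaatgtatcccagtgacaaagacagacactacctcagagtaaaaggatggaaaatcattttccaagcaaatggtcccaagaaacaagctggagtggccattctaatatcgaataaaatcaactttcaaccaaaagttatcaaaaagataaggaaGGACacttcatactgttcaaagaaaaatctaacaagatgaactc
C730002L08Rik: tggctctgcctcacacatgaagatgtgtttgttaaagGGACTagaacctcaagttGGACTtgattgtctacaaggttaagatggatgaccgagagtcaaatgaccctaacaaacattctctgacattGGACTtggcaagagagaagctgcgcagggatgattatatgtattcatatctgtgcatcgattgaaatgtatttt
Zfp862-ps: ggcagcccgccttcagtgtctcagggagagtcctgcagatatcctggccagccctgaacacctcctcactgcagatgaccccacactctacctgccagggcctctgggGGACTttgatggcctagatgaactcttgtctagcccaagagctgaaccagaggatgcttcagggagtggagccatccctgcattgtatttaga
Meg3: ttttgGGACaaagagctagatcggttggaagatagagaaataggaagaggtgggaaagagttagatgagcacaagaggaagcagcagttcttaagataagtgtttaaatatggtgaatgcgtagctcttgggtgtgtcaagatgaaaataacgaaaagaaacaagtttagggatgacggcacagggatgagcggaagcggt
The C730002L08Rik window held 3 copies of GGACT and that of 3000002C10Rik held 3 copies of GGAC, none followed by T. The windows of 1700096K18Rik and 2810402E24Rik held no GGAC on the gene's strand, although these were the strongest members after 3000002C10Rik. On the opposite strand these windows held 1 and 0 copies, and they cover only part of the intervals, which are 346 and 639 nt long.

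Peaks in non-coding exons were shared unevenly between the lists. In replicate 1, 1159 peaks had their midpoint in a non-coding exon and 534 of them (46.1%, 95% Wilson interval 43.2 to 48.95) overlapped a replicate 2 peak, against 60.0% of all replicate 1 peaks and 68.6% of those in protein-coding exons. In replicate 2, 656 peaks lay in non-coding exons and 532 (81.1%, 77.9 to 83.9) overlapped a replicate 1 peak, against 77.0% of all. The shorter replicate 2 list was therefore mostly contained in that of replicate 1, while most replicate 1 peaks in non-coding exons had no partner. The members came from 540 peaks of replicate 1 and 539 of replicate 2, so that some neighbouring members share a wide peak and with it a fold enrichment value.

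Enrichment of the members was higher than that of shared intervals in general. Their median fold enrichment reached 3.61 in replicate 1, with quartiles of 2.72 and 4.71, and 2.78 in replicate 2, with quartiles of 2.23 and 3.56, against 3.04 and 2.34 over all shared intervals and 3.01 and 2.32 in protein-coding exons. Enrichment of 2-fold or more in both replicates was reached by 449 of the 555 members, or 80.9% (77.4 to 83.95), where 63.1% of all shared intervals reached it. The difference was the same in sign in 3 classes of interval length. Among intervals under 250 nt, 70.9% of 182 members and 39.1% of those in coding exons reached that level, from 250 to under 400 nt 82.4% of 210 members and 55.4%, and at 400 nt and over 90.2% of 163 members and 87.1%. Intervals in no annotated exon had medians of 3.31 and 2.55 over all lengths and 69.0% at 2-fold or more in both replicates, but their position against coding exons depended on length. Their share was 58.5% under 250 nt and 81.7% from 250 to under 400 nt, both above coding exons and the second within the members' interval of 76.7 to 86.9, and 71.3% at 400 nt and over, below coding exons. Members lay in the top 10% of all shared intervals in 96 cases in replicate 1 (17.3%, at 5.33 or more) and in 128 in replicate 2 (23.1%, at 3.61 or more). Intervals are not replicates of a condition, so no test was made. Fold enrichment has the input in its denominator, and the input level of these genes could not be compared here.

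**Figure D1:**
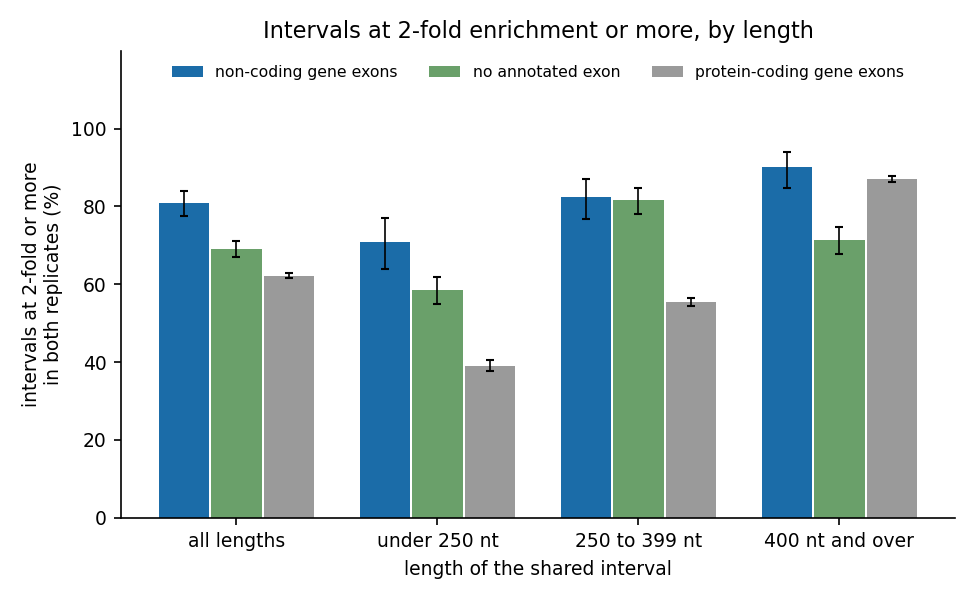
Share of shared intervals (%) at 2-fold or more in both replicates, by interval length, for intervals in non-coding gene exons, in no annotated exon and in protein-coding gene exons. Bars start at 0 and error bars are 95% Wilson intervals. Non-coding exons reached 80.9% over all lengths against 62.1% in coding exons, and the gap was smallest at 400 nt and over.

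The replicates ordered the members less alike than they ordered intervals in general. Spearman's rho between the fold enrichments of the replicates was 0.399 over the 555 members and 0.608 over all 23901 intervals, given as a description because neighbouring intervals share peaks. Replicate 1 had the higher value in 71.7% of members and in 77.6% of all intervals. Starts and ends within 20 nt of each other in both lists were found for 54 members. The median member was 304 nt long against 334 nt over all shared intervals, the extremes were 3 and 3488 nt, and 8 members were shorter than 50 nt.

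By gene type, lincRNA held the most members, with 184 in 119 genes, and its medians of 3.51 in replicate 1 and 2.65 in replicate 2 were the lowest of the 3 long non-coding groups formed here. Antisense genes held 101 members in 79 genes, with medians of 3.71 and 2.84. The group of processed transcripts and other long non-coding types held 146 members in 96 genes, with medians of 3.58 and 2.81. The 104 processed transcripts among them had medians of 3.47 and 2.71, in replicate 1 just below lincRNA, and the 5 sense intronic members were below lincRNA in both replicates. The 95% order-statistic intervals of these medians overlapped in both replicates, for example 3.24 to 3.79 for lincRNA and 3.26 to 4.11 for antisense in replicate 1. TEC models held 41 members in 35 genes with medians of 4.07 and 3.20, and processed pseudogenes 43 members in 37 genes with 4.16 and 3.09. Unprocessed and other pseudogenes held 34 members in 25 genes with 3.64 and 2.89. All 6 of these groups lay above the medians of all shared intervals in both replicates. The 6 members in small RNA genes did not in replicate 1, with medians of 2.36 and 2.68.

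**Figure D2:**
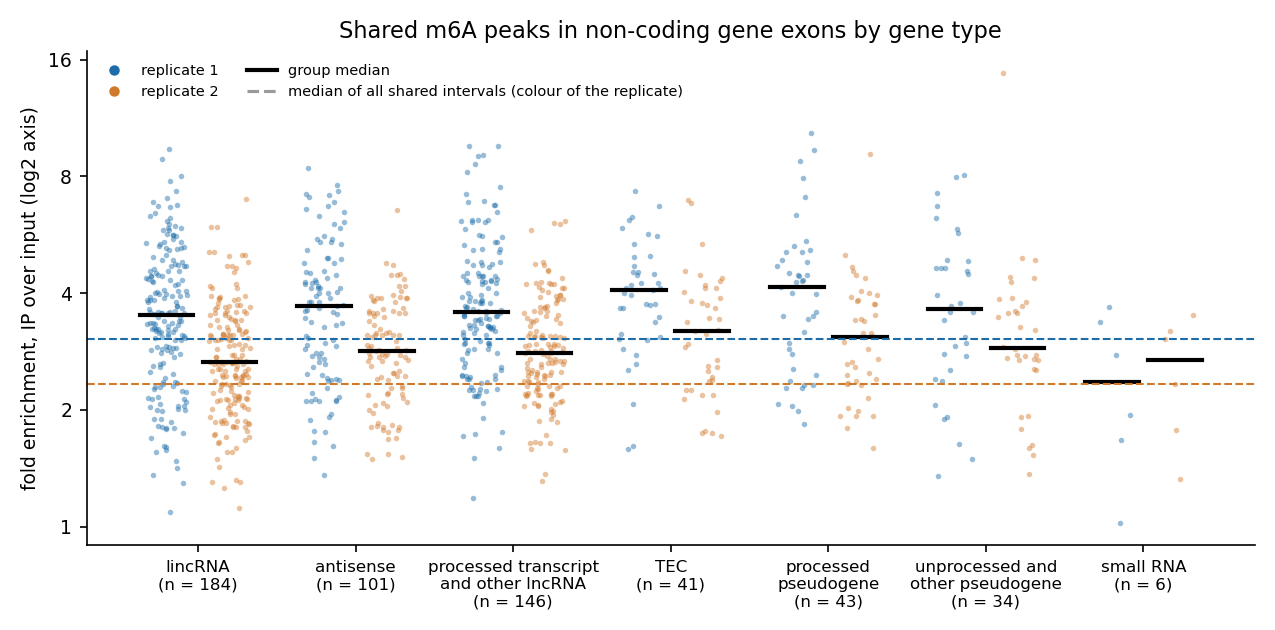
Fold enrichment (IP over input, log2 axis) of every member by gene type, replicate 1 in blue and replicate 2 in orange. Black bars are group medians and dashed lines the medians of all shared intervals, 3.04 and 2.34. Group medians lay above both lines except for small RNA genes in replicate 1.

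Enrichment of 2-fold or more in both replicates was most frequent in processed transcripts and other long non-coding genes (88.4% of 146, Wilson interval 82.1 to 92.6), TEC (87.8%) and processed pseudogenes (86.0%), and less frequent in lincRNA (75.5%, 68.9 to 81.2). Antisense genes stood at 79.2% and unprocessed pseudogenes at 76.5%. Sharing between the lists also varied. Only 34.8% of the 112 replicate 1 peaks in TEC models overlapped a replicate 2 peak, while 88.6% of the 44 replicate 2 peaks there overlapped one of replicate 1. For processed pseudogenes the shares were 38.1% of 105 and 73.7% of 57.

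The 15 strongest members, 1 per gene and ranked by the smaller fold enrichment of each pair, came from 6 lincRNA genes, 1 antisense gene, 3 genes of the processed transcript group, 2 TEC models and 3 processed pseudogenes. The highest was 3000002C10Rik, a transcribed processed pseudogene on chromosome 9 (109830031 to 109830595, exon 2 of 2), at 8.77 in replicate 1 and 9.12 in replicate 2. Its interval best matched the coding gene Gm3839, at 89.98% identity over 77.0% of its length. It also matched Gapdh, the glycolytic enzyme whose gene has many inserted copies, at 90.1% identity over 74.5% of its length. Soft-masked sequence made up 83.2% of the interval. The lincRNA 1700096K18Rik followed at 7.03 and 6.998 and the antisense gene 2810402E24Rik at 6.87 and 6.56. In the latter the nearest exon on the other strand, of the coding gene Usp54, was 445 nt from the midpoint of the 639 nt interval.

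The TEC model Gm37607 had values of 5.61 and 6.96, and all of its interval was soft-masked repeat in the reference. C730002L08Rik (processed transcript) stood at 5.43 and 5.81, Gm10010 (lincRNA) at 5.29 and 5.12, and B130055M24Rik (processed transcript) at 5.10 and 6.12. Among these 15 members, replicate 1 was the higher in 10 and replicate 2 in 5. The members differed in how close the replicates were. Sox1ot, a transcript that overlaps Sox1, the gene of a neural progenitor transcription factor, had nearly equal values of 4.85 and 4.74, whereas the ribosomal protein pseudogene Rpl36-ps12 had 10.4 and 4.66. Its interval matched Rpl36 at 99.5% identity over 62.9% of its length. Of the 15 intervals, 9 lay in the last exon of a multi-exon transcript and 6 in a single-exon transcript, 12 windows held GGAC and 6 held GGACT. Over all 555 members, 266 lay in the last exon of a multi-exon transcript and 30.45% in a single-exon transcript. GGAC was in 69.9% and GGACT in 29.55% of their windows.

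**Figure D3:**
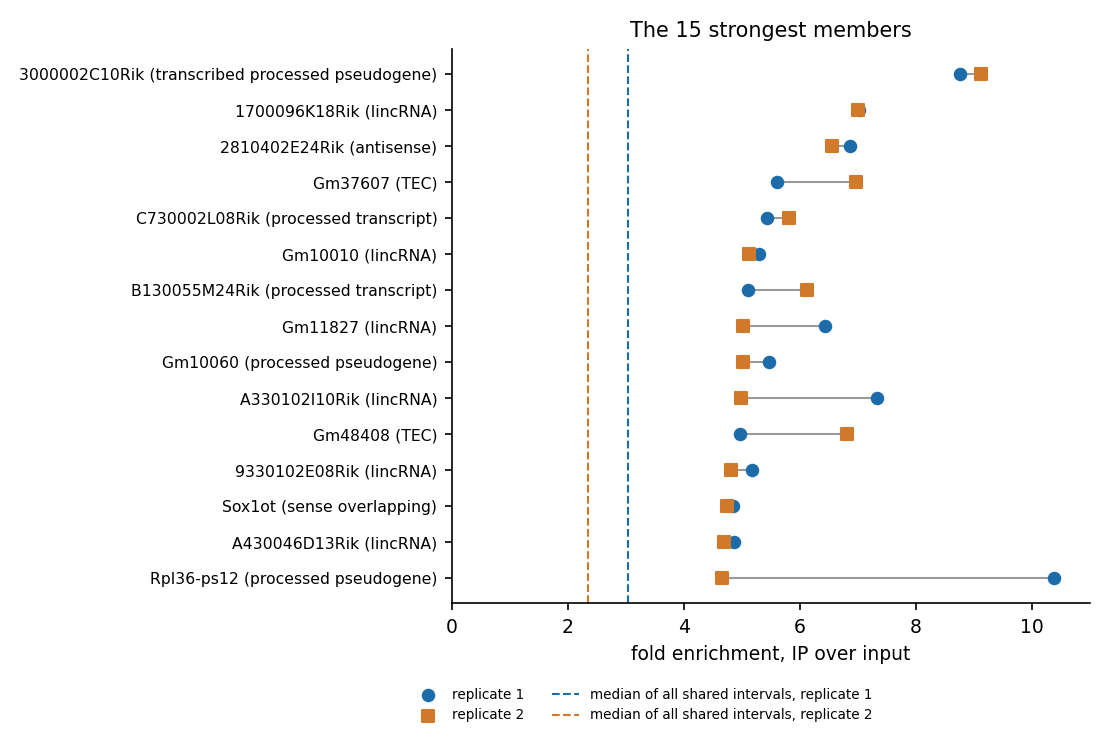
Fold enrichment (IP over input, linear axis from 0) of the 15 strongest members in replicate 1 (blue circles) and replicate 2 (orange squares), 1 per gene, with gene type in brackets. Dashed lines are the medians of all shared intervals. 3000002C10Rik was highest at 8.77 and 9.12, and Rpl36-ps12 showed the widest gap, 10.4 against 4.66.

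A list of 50 long non-coding RNA genes with known roles was read out in the same way. It was chosen with earlier results of these data known. Of the list, 48 names were found in the annotation and 47 were typed as non-coding (Snhg11 was typed as protein-coding). A member was present in 21 of the 47 genes, 47 members in all. The share of all annotated non-coding genes with a member is not given here, so this count has no background beside it. A peak was counted for a gene only when its midpoint lay in an exon of that gene and in no coding exon. Where several non-coding genes held the midpoint, the one with the longest exonic overlap was used. Peaks that only reach into a gene are thus not counted, as with the replicate 2 peak behind the Pvt1 member. By this count another 10 genes had peaks but no member, and 16, Xist, Tsix, Rmst and H19 among them, had no peak in either list. In whole brain a gene without a peak may lack the mark or the RNA, and fewer cells of a type and less RNA per cell cannot be told apart.

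Meg3, an imprinted lincRNA expressed from the maternal allele in brain, held the most members of any gene, 10, with 11 replicate 1 peaks and 14 replicate 2 peaks in its exons. From the 5′ end their fold enrichments in replicate 1 were 3.98, 1.30, 1.09, 2.42, 4.74, 3.33, 4.19, 3.55, 2.51 and 3.18. In replicate 2 they were 2.52, 1.26, 1.12, 2.52, 2.52, 1.87, 1.84, 1.74, 1.73 and 2.47, and the neighbouring values of 2.52 came from the same peak. Replicate 1 was higher in 8 of the 10 and both replicates reached 2-fold in 4, so that Meg3 carried many intervals of moderate enrichment, with a replicate 2 median of 1.85 below that of all members. The strongest, at 4.74 and 2.52, spanned chr12:109559240-109562512, and 7 of the 10 lay in a last exon of 13087 nt. Its partners in the same imprinted cluster, Rian, a host of small nucleolar RNAs, and Mirg, a host of microRNAs, had 1 member each, at 4.28 and 3.84 for Rian and 2.05 and 1.71 for Mirg.

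Miat, a nuclear lincRNA expressed in neurons, had 6 members. From the 5′ end their values were 1.74, 3.55, 1.81, 1.47, 3.54 and 3.21 in replicate 1, and 1.80, 3.04, 1.30, 1.30, 2.63 and 1.96 in replicate 2. The values of 1.30 came from the same replicate 2 peak. The same 3 intervals were highest in both replicates, and 5 of the 6 windows held GGACT. Tug1, which GENCODE types as antisense, had 4 members at 4.78, 2.11, 2.95 and 3.07 in replicate 1, and 3.08, 2.49, 1.85 and 3.799 in replicate 2. The replicates did not order the Tug1 intervals alike, the one at the 3′ end being highest in replicate 2 and the one nearest the 5′ end in replicate 1.

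**Figure D4:**
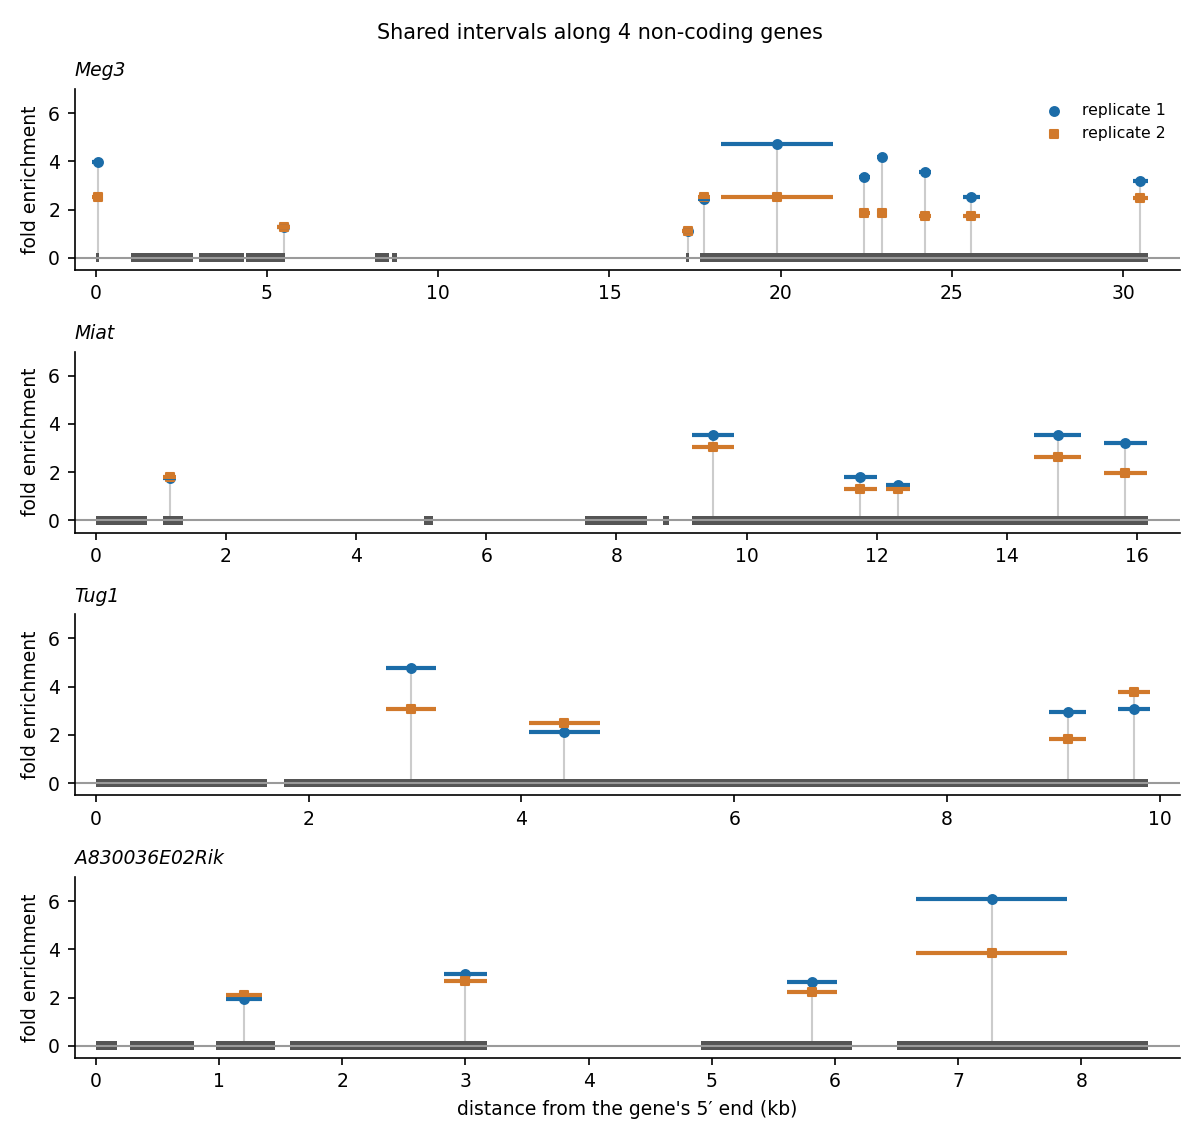
Members along Meg3, Miat, Tug1 and A830036E02Rik. The horizontal axis is the distance from the 5′ end of the gene in kb, the vertical axis the fold enrichment, horizontal bars span each interval and grey blocks are annotated exons of all transcripts. Meg3 carried 10 intervals, most of them in its long last exon, and the strongest A830036E02Rik interval stood at 6.10 and 3.85 near the 3′ end.

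The nuclear lincRNAs Malat1 and Neat1, which lie side by side on chromosome 19 and mark nuclear speckles and paraspeckles, had 3 and 2 members. Those of Malat1 stood at 4.97, 4.06 and 3.94 in replicate 1 and 2.12, 3.11 and 3.11 in replicate 2, and those of Neat1 at 4.70 and 4.71 in replicate 1 and 2.67 and 1.77 in replicate 2. The Malat1 values of 3.11 came from the same replicate 2 peak. All 5 members were higher in replicate 1. Imprinted antisense RNAs differed from each other. Airn, transcribed across Igf2r, had 2 members, at 3.03 and 2.89 and at 4.13 and 3.17 in replicates 1 and 2. Kcnq1ot1, which covers part of Kcnq1, had no member. By the count of midpoints it had 12 replicate 1 peaks and none in replicate 2. Peg13, an imprinted RNA inside the Trappc9 gene, had a member of 3488 nt, the longest of all, at 6.09 and 3.06, and another at 1.18 and 1.59.

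Of the RNAs around the X inactivation centre, Jpx and Ftx had 1 member each, at 4.29 and 3.11 and at 4.08 and 2.11. RNAs transcribed beside neural developmental genes also carried single members. Dlx6os1, in the Dlx5 and Dlx6 locus of interneuron development, stood at 4.38 and 3.61, and Six3os1, opposite the forebrain gene Six3, at 4.24 and 2.96. Pantr1, near the neuronal transcription factor gene Pou3f3, was weaker, at 1.55 and 1.70. Sox2ot, which overlaps the stem cell gene Sox2, had 4 replicate 1 peaks and none in replicate 2 by the count of midpoints.

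Hosts of small RNAs formed a part of the set. In 24 genes, with 49 members, at least 1 microRNA gene lay inside the span on the same strand, and their medians were 3.16 and 2.34, below the 3.61 and 2.78 of all members. Both replicates reached 2-fold in 65.3% of them. Mir124a-1hg, the host of a neuronal microRNA, had 2 members, with 1.42 and 1.61 in replicate 1 and 1.56 for either in replicate 2, and Mir9-3hg had 1 at 4.71 and 2.66. Meg3 itself accounted for 10 of the 49. Genes with small nucleolar or Cajal body RNAs inside their span held 4 members.

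Members were spread over many genes. One member was found in 302 genes, 58 genes had 2, 26 had 3 and 11 had 4 or more, these 11 holding 59 members. Beside Meg3, Miat and Tug1 they included 1500004A13Rik with 7, ranging from 1.59 to 5.20 (replicate 1) and from 1.37 to 3.68 (replicate 2). Replicate 1 was the higher in all 7, which came from 6 peaks in each replicate. 3110039I08Rik had 5 members, at 2.64 to 4.72 and 2.45 to 4.28, all at 2-fold or more in both replicates. They came from 5 peaks of replicate 1 and 4 of replicate 2. C230004F18Rik on the X chromosome had 4, at 2.81 to 6.76 and 1.85 to 4.13. The RefSeq annotation places 2 of these, the one at 6.76 among them, in coding sequence, as given below. A830036E02Rik, an antisense gene, had 4 at 1.96 to 6.10 and 2.09 to 3.85. In A730017L22Rik 4 members ranged from 4.26 to 9.56 in replicate 1 and from 2.06 to 2.94 in replicate 2, and 2 of the 4 lay in the same replicate 1 peak. B230303A05Rik and B230354K17Rik had 4 each, all at 2-fold or more in both replicates. In either gene they came from 4 peaks of replicate 1 and 3 of replicate 2.

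The place of the members in their transcripts was read on the longest spliced transcript that holds the midpoint. Shares of bases are means, over the intervals, of the share in the transcript of each. A single-exon transcript held 169 members (30.5%), against 3.33% of intervals in coding exons, among them all 41 in TEC models and 30 of the 43 in processed pseudogenes. Of the 386 members in multi-exon transcripts, 266 (68.9%, 64.1 to 73.3) lay in the last exon, which held on average 66.7% of the bases of the transcript. The share was thus within its interval of what the exon lengths give. In coding transcripts 47.4% of intervals lay in the last exon, which held on average 50.6% of the bases. The share was 76.3% for lincRNA (71.1% of bases), 62.5% for antisense (64.2%) and 67.3% for the processed transcript group (64.9%).

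Within the last exon, members were more frequent towards its 5′ end, with 89 of 266 (33.5%) in the first of 5 equal parts and 31 (11.7%) in the last. Intervals in coding genes showed the same order with 41.1% and 8.34%. The first 400 nt of the last exon held 45.5% of the last-exon members and on average 31.0% of its bases, against 47.2% and 24.8% in coding genes. Exons with members were long, with a median of 1558 nt against 1069 nt for coding intervals. Exons of at least 400 nt held 84.0% of the members and on average 81.5% of the bases of their transcripts.

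**Figure D5:**
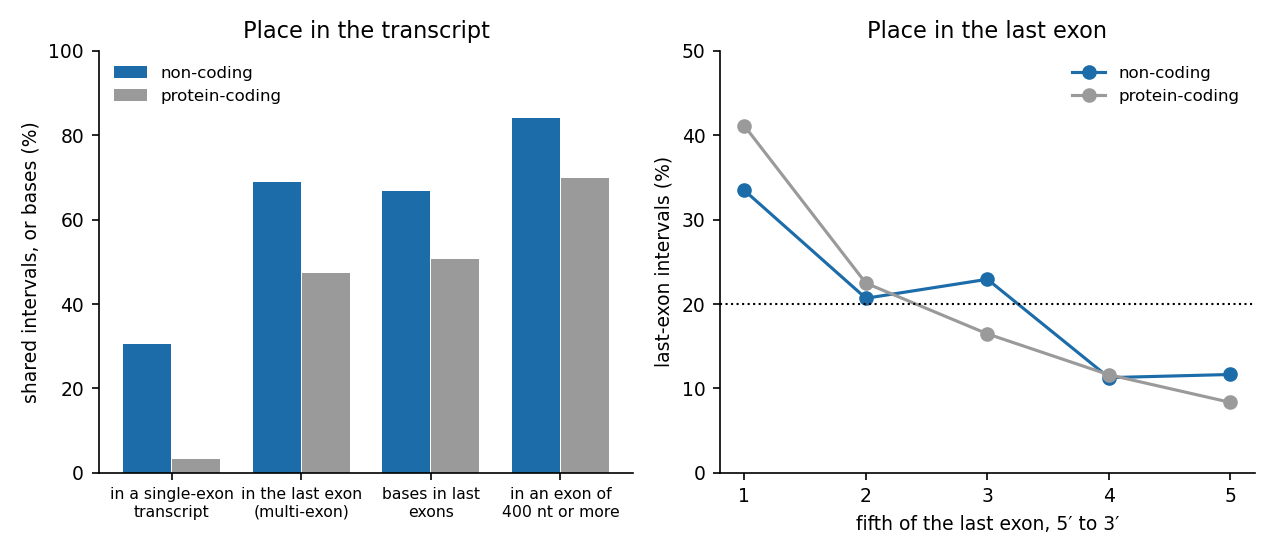
Left, share (%) of shared intervals in single-exon transcripts, in the last exon of multi-exon transcripts and in exons of 400 nt or more, with the mean share of a transcript's bases in its last exon, for non-coding (blue) and protein-coding (grey) genes. Right, share of last-exon intervals in 5 equal parts of that exon, with the dotted line at 20%, the value for an even spread. Both gene classes fell from the first of these (33.5% and 41.1%) to the last (11.7% and 8.34%).

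GGACT, the strongest form of the m6A consensus, was found in the central window, of the length shown above, of 164 members (29.5%, 25.9 to 33.5) on the strand of the gene and of 96 (17.3%) on the opposite strand, which serves as the background of the same windows. In coding exons the shares were 27.7% and 17.1%. Windows were cut from the genome and not from spliced RNA, so in short exons they can hold intron sequence. The lower quartile of exon length was 652 nt for members and 273 nt for coding intervals. GGAC, which GGACT contains, was found in 69.9% of member windows on the gene's strand and 44.9% on the opposite strand, and in 68.4% and 48.8% of coding windows. The difference between strands held for lincRNA (GGACT in 55 of 184 windows against 35), antisense genes (35.6% against 13.9%), the processed transcript group (30.8% against 15.1%) and TEC (34.1% against 19.5%). The sign was the reverse for GGACT in processed pseudogenes, with 6 of 43 windows on the gene's strand (Wilson interval 6.56 to 27.3%) and 9 on the opposite strand. GGAC was found there in 60.5% against 37.2%. Unprocessed and other pseudogenes had GGACT in 7 of 34 windows against 6, and small RNA genes in 1 of 6 against 2. Members with GGAC in the window had median fold enrichments of 3.64 and 2.78, and those without it 3.59 and 2.76, whereas in coding exons the medians were 3.09 and 2.35 with GGAC and 2.85 and 2.22 without. A match of letters does not show a methylated base.

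The annotation itself was uncertain for some members. The RefSeq annotation of the same build places 52 members, in 34 genes, in an exon of a protein-coding gene on the same strand, 29 of them in coding sequence. All 7 members of Trerf1, a zinc finger transcriptional regulator that GENCODE M21 types as processed transcript, were of this kind, with 2.17 to 4.81 (replicate 1) and 2.02 to 4.07 (replicate 2). So were the 3 of Zswim6, at 9.11, 2.45 and 3.76 in replicate 1 and 4.13, 2.30 and 2.08 in replicate 2, those of Gm5165, and those of Gm43597, which overlaps N4bp2l2. Of the 4 members of C230004F18Rik, 2 were of this kind, in coding sequence of Gm4988. They included the one at 6.76 and 3.06. Without these 52 members, 503 remained, with medians of 3.61 and 2.76.

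The libraries were made with a kit that does not mark strand, so reads of a gene and of one on the opposite strand cannot be told apart. An exon of a protein-coding gene on the opposite strand lay within 1 kb of the midpoint of 126 members (22.7%), and of 51 of the 101 in antisense genes. At least 1 base of a coding exon was touched by 50 members, whose medians were 3.45 and 2.43 against 3.65 and 2.84 for the other 505. For the 145 members with a coding exon within 1 kb of the midpoint on either strand the medians were 3.61 and 2.73. For the other 410 they were 3.60 and 2.81.

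Similarity to coding genes was searched with blastn against spliced coding transcripts, and the best-scoring match of each interval was used. It covered at least 50% of the interval in 108 members (19.5%), and in 32 of the 43 in processed pseudogenes. In 78 of the 108 the match was in sense. A match need not be a copy of a gene, since it can lie in a repeat. For example, the intervals of Gm28756 and Gm16344, soft-masked over 100% of their length, matched Vmn2r1 and Olfr1506. The identity of this best match was at least 90% in 49 members. Their medians of 3.36 and 2.59 and share of 61.2% at 2-fold in both replicates were below the 3.61, 2.78 and 80.9% of all members. The other 59 members, whose best match was at lower identity, stood above all members, with medians of 4.29 and 3.14 and a share of 91.5%. They include 3000002C10Rik, whose best match was at 89.98% although its match to Gapdh was at 90.1%. Reads of near-identical sequences can be placed on the wrong locus. Examples are Gm6030, a copy of the ribosomal protein gene Rps24 at 95.7% identity, at 4.28 and 4.38, and Tma7-ps, a copy of Tma7 at 99.2%, at 4.16 and 3.75. Gm14292, at 2.97 and 2.47, matched Wtap, the gene of a subunit of the m6A methyltransferase complex, at 98.9% over its whole length. Soft-masked repeats made up at least 50% of 61 of the 555 members, against 1.23% of coding intervals, and the medians of those members were 3.71 and 2.91.

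Of the 6 members on which the replicates differed most, Gm4617 and Gm29216 had a near-identical match to a coding gene, and the others had no match. The cause of these differences was not tested. Gm4617, a processed pseudogene identical over 99.5% of the interval to Ptma, the gene of prothymosin alpha, had 9.38 in replicate 1 and 1.98 in replicate 2. Both A730017L22Rik intervals named above had 9.56 in replicate 1 and 2.20 and 2.06 in replicate 2. In the other direction, Gm10925 had 2.37 and 14.8 with a common interval of only 3 nt. Gm29216, an unprocessed pseudogene that also lies on chromosome 1 and is identical to the mitochondrial gene mt-Co1 over the whole interval, had 1.89 and 4.94. Gm16835, a processed transcript, had 2.46 and 6.03.

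The 6 members in small RNA genes had their midpoint in genes of a median length of 118 nt, shorter than the median interval of 309 nt. Mir6944 stood at 3.69 and 3.04. Its midpoint was 42 nt from an exon of the coding gene Dbn1, which encodes the spine protein drebrin, on the same strand. The Cajal body RNA genes Gm23119, Gm22009 and Scarna2 stood at 3.37 and 3.19, 1.67 and 2.33, and 2.77 and 1.77. The snoRNA gene Gm24966 on chromosome 7 had 1.94 and 3.52, and mt-Th, a mitochondrial tRNA gene, 1.02 and 1.32, the lowest replicate 1 value of all members. The intervals of Mir6944, 510 nt long, and of mt-Th overlapped an exon of a protein-coding gene. Only Mir6944 and Gm23119 reached 2-fold in both replicates.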

How the data were processed

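The 2 m6A IP samples of mouse brain each came with a peak list. Per the study's methods, the authors used Cutadapt against adapters, removed short or ambiguous reads with Trimmomatic, aligned to mm10 with TopHat (TopHat2 2.0.9 per the labels), kept uniquely mapped reads and called peaks with MACS2 per replicate against its input, with duplicates kept and a false discovery rate cutoff. The deposited value of a peak is its fold enrichment (IP divided by input, a ratio). Duplicates and low input can raise it. Depth is unknown.

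Peaks were intersected (at least 1 bp), placed by midpoint in GENCODE M21 exons, and read on GRCm38.p6. Where several non-coding genes held a midpoint (22 members), the one with the longest exonic overlap was used. Motifs were sought in genomic windows of 100 nt on either side of the midpoint, and matches to coding transcripts with BLAST 2.17.0 (e-value 1e-10). Overlaps were checked against bedtools 2.31.1 on simulated data. Intervals are 95% Wilson or order-statistic intervals. They treat intervals as independent. Named genes were the 15 strongest members, genes with 4 or more members, the list of 50 long non-coding RNAs, the strongest member of each type and the 6 with the most unequal replicates. Others, such as Trerf1 beside RefSeq or Wtap among copies, were named after their values were seen. The sequence planned for 1 further strong member is not reported here. Members and lists were chosen with earlier results of these data known. Computation used Python 3.11.15 with scipy 1.17.1.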

Additional observations from a re-analysis of the deposited data

How the results depend on the processing

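Most values moved little. Of 73 alternative values other than leaving out a replicate, 58 stayed within 1.5 times the count or within the 95% interval of the value. The share of shared intervals in non-coding exons, 2.32%, became 2.10% with an overlap of at least 50% of both peaks. It became 2.98% when only 2-fold or stronger peaks were used and 2.11% without intervals that touch a coding exon. Without members in RefSeq coding exons it was 2.11%, and without members whose best coding match was near-identical 2.12%. These last 2 alternatives were added after the data were seen. With peaks of at least 2-fold the medians became 3.91 and 3.06, and the share at 2-fold in both replicates became 100% by construction. The GGACT share of 29.5% became 17.8% in windows of 50 nt on either side of the midpoint, 42.0% over whole intervals and 17.3% on the opposite strand, and was 69.9% for GGAC. The shared part of the replicate 1 peaks in non-coding exons fell from 46.1% to 36.4% with 50% overlap and to 40.2% with peaks of at least 2-fold, and that of replicate 2 from 81.1% to 63.6% with 50% overlap. Where no construction accounts for a shift, the cause was not tested. Without one replicate, the peaks of the other list alone gave 656 to 1159 intervals in 468 to 818 genes, and a share of 2.18 to 3.01%, the higher values coming from the list of replicate 1. No paired analysis was possible because no result came from a test and only the IP samples have values.

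Depth is unknown, only 2 replicates exist, and strand is not marked, so a missing peak is no evidence of a missing mark.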

Other observations

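Peaks in non-coding exons that were found in 1 list alone numbered 625 in replicate 1, with a median fold enrichment of 3.30 and a median length of 282 nt, and 124 in replicate 2, with 2.52 and 287.5 nt. Shared replicate 1 peaks there had a median of 3.58 and 407 nt. In protein-coding exons the medians of peaks in the replicate 1 list alone were 2.31 and 312 nt. By the count of midpoints, Kcnq1ot1 (12 peaks), Sox2ot (4) and Gas5 (2) had peaks in replicate 1 alone. Snhg14, Snhg1 and Zfas1 had 1 peak each in replicate 2 alone.

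By chromosome, members made up 4.03% of the shared intervals on chromosome 12 (37 of 919), where 10 of them lay in Meg3, 3.52% on X (24 of 682) and 3.39% on chromosome 3 (35 of 1033). The lowest share among autosomes was 1.23% on chromosome 10 (14 of 1139). These shares were not tested.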
